A study of Mus musculus with 15 samples.

Results

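The platelet-derived growth factor (PDGF) ligands and receptors were taken as 7 genes: the ligands Pdgfa, Pdgfb, Pdgfc and Pdgfd, the receptor kinases Pdgfra and Pdgfrb, and the receptor-like gene Pdgfrl. Every probe whose transcript identifier belonged to one of them was used, which gave 9 probes of the 55681 on the array and 7 genes of the 19752 that could be named. Pdgfa and Pdgfb had 2 probes each and the other genes 1 each. The probes were chosen by identity and not by any measured value.

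PDGFs are dimeric secreted growth factors that bind and pair receptor tyrosine kinases on mesenchymal cells. PDGF-A and PDGF-B are released as active dimers after intracellular cleavage, whereas PDGF-C and PDGF-D carry a CUB domain that must be removed by proteases outside the cell. In growing vessels, endothelial cells release PDGF-B and pericytes carry PDGF receptor beta, while PDGF receptor alpha marks fibroblasts and other connective tissue cells, so in a tumour most of the receptor message is taken to come from stroma.

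The tumours arose in female MMTV-PyMT mice, in which the mouse mammary tumour virus promoter drives polyomavirus middle T antigen in the mammary epithelium. All groups carried this transgene. T0 tumours (n = 4) were sampled before any treatment. The end-of-treatment groups were treated from 7 weeks of age with vehicle (n = 3), with B20-4.1.1 at 5 mg/kg by intraperitoneal injection 2 times per week (n = 4), or with nintedanib at 85 mg/kg per day by oral gavage (n = 4). B20-4.1.1, called B20 here, is an antibody that neutralises VEGF-A, and nintedanib is a small-molecule inhibitor of the VEGF, FGF and PDGF receptor kinases. The study concerned tumours that resist such antiangiogenic drugs. The ages at sampling, the strain background, the vehicle and whether samples are separate animals are not given in the sources used here. A p-value below therefore reflects the spread between samples alone, part of which may be technical. T0 replicate 4 also carries a vehicle label and was grouped by its title.

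Each of the 15 samples was read on its own 1-colour array, with a median raw signal between 55 and 102 and a median local background between 19 and 26. On 14 arrays between 53.4% and 68.1% of probes were well above background, and on T0 replicate 3 the share was 84.2%, so results that rest on that array are also given without it. The 4 T0 arrays lay on 2 slides of their own (replicates 1 and 2 on the one, 3 and 4 on the other). Per the file headers they were also extracted with another protocol than the end-of-treatment arrays. Slide, extraction protocol and sampling time therefore cannot be told apart. Both slides of end-of-treatment arrays held all of vehicle, B20 and nintedanib. A level below is the log2 processed signal minus the array's 75th percentile, so a level of 0 is the brightness of the probe at the 75th percentile of that array. Levels of different probes are not comparable with each other. Luminal epithelial markers (Epcam, Krt8, Krt18 and 5 others) were all measured in every group, and the log2 of their summed signal was 9.17 to 9.74 over the 15 arrays.

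All 9 probes passed the filter on dim probes (well above background on at least 3 arrays), and 8 of them were well above background on every array. The exception was the Pdgfb probe A_55_P1974441, which was so on 11 of 15 arrays and had a median processed signal of 23.0, against 749 for the other Pdgfb probe, A_55_P2047310. The Pdgfd probe was also dim, at a median signal of 37.4. No member spot was saturated and none of the members' values was imputed.

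**Figure D1:**
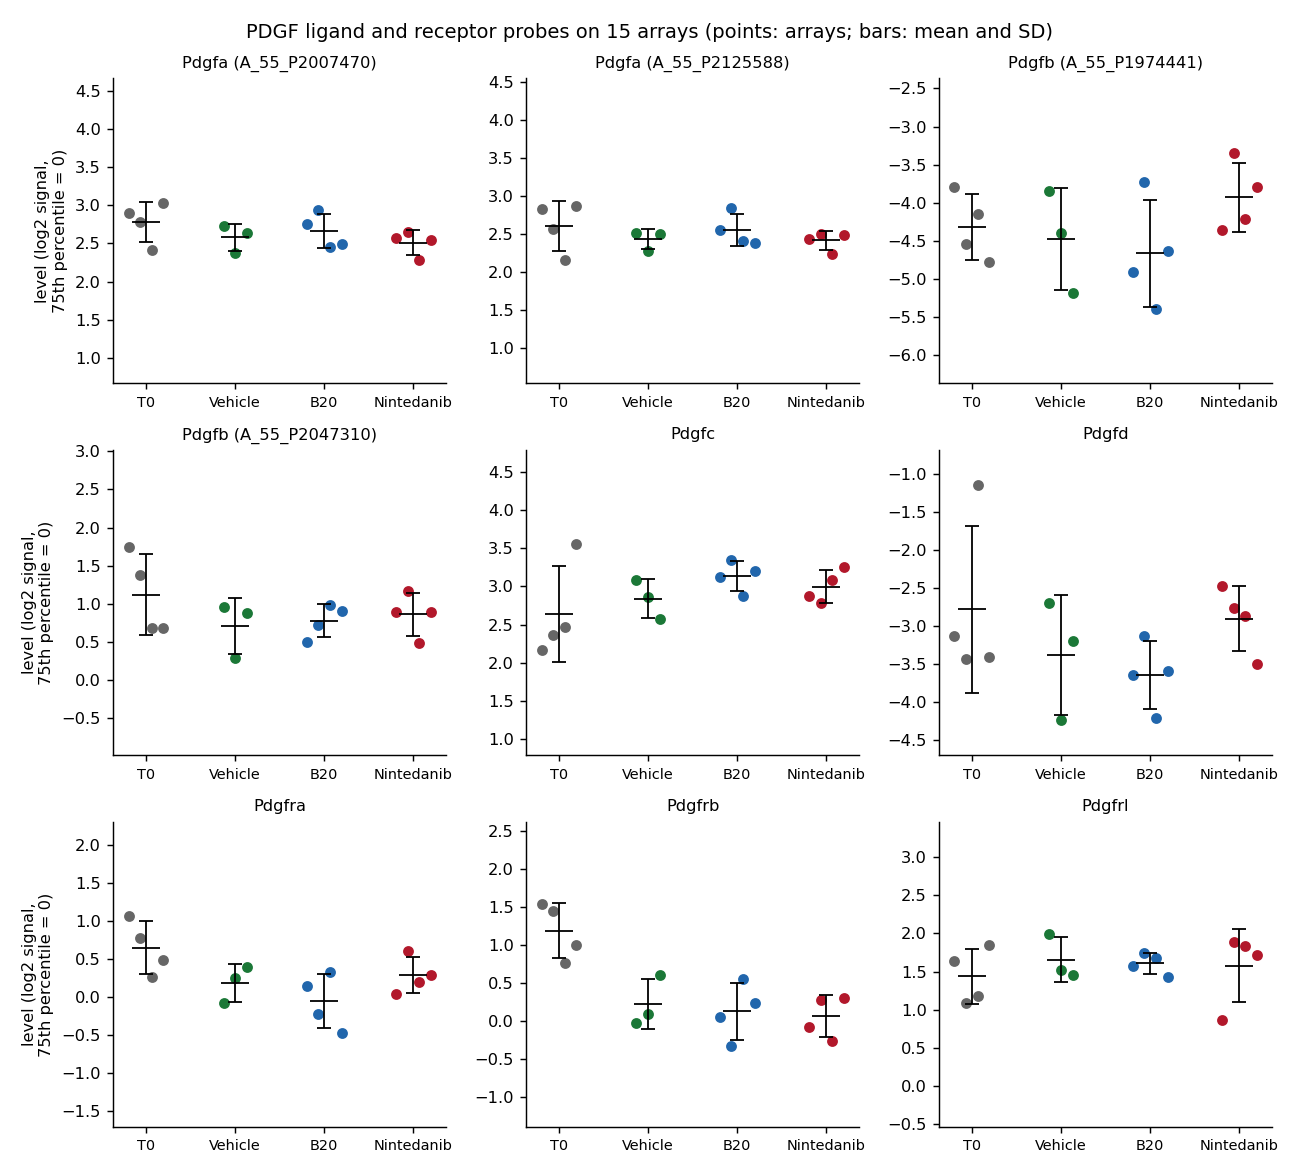
Level (log2 processed signal, 75th percentile of the array at 0) of the 9 PDGF ligand and receptor probes on each of the 15 arrays, by group, with mean and SD, each panel spanning 4 log2 units. Pdgfrb is the panel in which the 4 T0 arrays, at 0.77 to 1.54, lie above all 11 end-of-treatment arrays, at -0.33 to 0.61.

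Pdgfa, which encodes the ligand of PDGF receptor alpha, was at similar levels in all groups. By probe A_55_P2007470 its level was 2.90, 2.79, 2.41 and 3.03 in T0, 2.72, 2.38 and 2.64 in vehicle, 2.75, 2.93, 2.46 and 2.49 in B20, and 2.57, 2.64, 2.28 and 2.55 in nintedanib. The groups overlapped, and the group means fell in the order T0 at 2.78 ± 0.27, B20 at 2.66 ± 0.23, vehicle at 2.58 ± 0.18 and nintedanib at 2.51 ± 0.16 (SD), with no neighbouring pair apart by more than its SD. Probe A_55_P2125588 of the same transcript gave the same order, with vehicle (2.43) and nintedanib (2.42) nearly level.

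Pdgfb, the ligand that recruits pericytes to new vessels, was read by its brighter probe A_55_P2047310 at 1.74, 1.37, 0.68 and 0.69 in T0, 0.95, 0.29 and 0.88 in vehicle, 0.49, 0.73, 0.98 and 0.90 in B20, and 0.90, 1.17, 0.48 and 0.90 in nintedanib. T0 replicates 1 and 2, which share a slide, were the highest of all 15 arrays, and T0 replicates 3 and 4 lay among the treated tumours. The dim probe was highest in nintedanib, at -4.36, -3.35, -4.22 and -3.79, and ran from -5.39 to -3.72 in B20 and from -5.18 to -3.85 in vehicle. It was well above background on 4 of 4 nintedanib arrays, 2 of 4 B20 arrays, 2 of 3 vehicle arrays and 3 of 4 T0 arrays.

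Pdgfc, a ligand that needs cleavage and acts mainly through receptor alpha, was read at 2.17, 2.37, 2.47 and 3.56 in T0, 3.09, 2.86 and 2.58 in vehicle, 3.13, 3.34, 2.88 and 3.20 in B20, and 2.87, 2.78, 3.09 and 3.25 in nintedanib. The lowest 3 of the 15 values were T0 arrays and the highest was T0 replicate 4. Pdgfd, the ligand that acts mainly through receptor beta, was low in all groups, at -3.13, -3.43, -1.15 and -3.41 in T0, -2.70, -4.24 and -3.20 in vehicle, -3.64, -3.13, -4.21 and -3.59 in B20, and -2.48, -2.76, -2.87 and -3.49 in nintedanib. T0 replicate 3 stood far above the other T0 arrays for Pdgfd, and this is the array with the larger share of probes above background.

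Pdgfra, the receptor that binds all PDGF dimers except PDGF-DD, was read at 1.06, 0.77, 0.26 and 0.49 in T0, -0.08, 0.25 and 0.40 in vehicle, 0.14, -0.22, 0.32 and -0.47 in B20, and 0.05, 0.61, 0.20 and 0.28 in nintedanib. T0 was highest on average, at 0.65 ± 0.35, followed by nintedanib at 0.28 ± 0.24, vehicle at 0.19 ± 0.25 and B20 at -0.06 ± 0.36 (SD), and the groups overlapped. Its probe is printed 10 times on each array, which gives the repeatability of a spot within an array but not of the sample or its labelling. The SD between spots was 0.0456 to 0.112 with a median of 0.0893, beside the SDs between arrays of a group of 0.24 to 0.36.

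**Figure D2:**
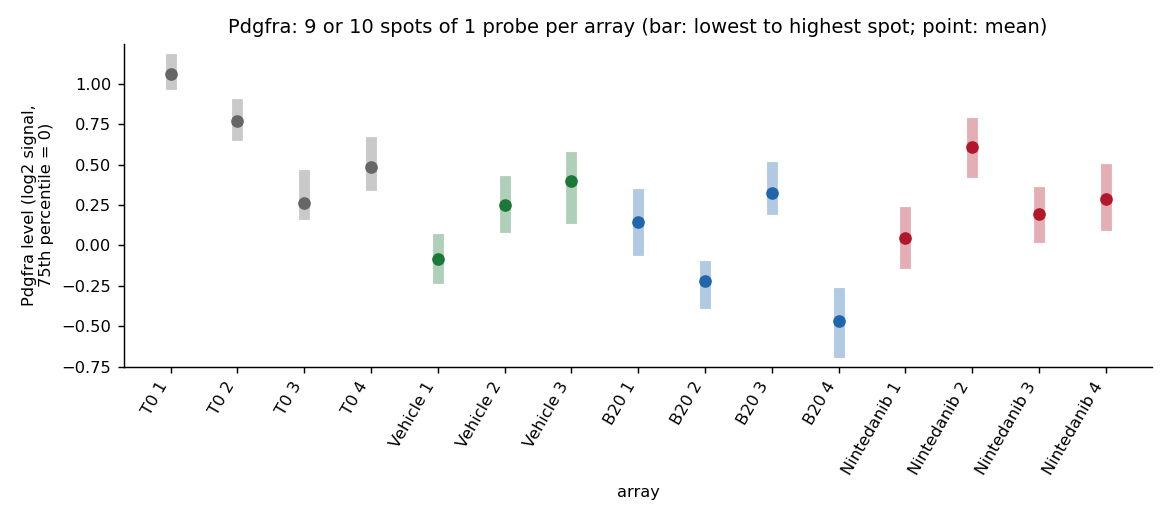
Pdgfra level (log2 processed signal, 75th percentile of the array at 0) on each of the 15 arrays, with the bar from the lowest to the highest of its 9 or 10 usable spots and the point at their mean. Spots of an array lie close together (median SD 0.0893) beside the array means (SD 0.381 over all 15, group differences included).

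Pdgfrb, the receptor of pericytes and vascular smooth muscle that binds PDGF-B and PDGF-D, was the member with the widest separation between groups. Its level was 1.54, 1.45, 0.77 and 1.00 in T0, -0.02, 0.10 and 0.61 in vehicle, 0.05, -0.33, 0.56 and 0.23 in B20, and -0.08, 0.28, -0.26 and 0.31 in nintedanib. Every T0 array was above every end-of-treatment array, which was true of 827 of 38958 probes (2.12%) and of no other member probe. Among T0 arrays, the pair on the one slide was higher than the pair on the other. The means were 1.19 ± 0.37 in T0, 0.23 ± 0.33 in vehicle, 0.13 ± 0.37 in B20 and 0.07 ± 0.28 in nintedanib (SD), so the 3 end-of-treatment groups differed from each other by less than their SDs.

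Pdgfrl resembles the ligand-binding part of the PDGF receptors and has no kinase domain. It was read at 1.64, 1.08, 1.19 and 1.84 in T0, 2.0, 1.52 and 1.46 in vehicle, 1.57, 1.75, 1.68 and 1.43 in B20, and 0.87, 1.89, 1.83 and 1.72 in nintedanib. Nintedanib replicate 1 was the lowest of all 15 arrays and the other 3 nintedanib arrays were among the 6 highest, and the groups overlapped.

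Whether either drug changed these messages was asked by comparing each with vehicle at the end of treatment. None of the 9 member probes passed the test (limma, Benjamini-Hochberg adjusted p under 0.05) in nintedanib against vehicle, where 0 of 38958 probes (0%) passed and 1830 had an unadjusted p under 0.05. The same held in B20 against vehicle, with 0% called and 1189 at an unadjusted p under 0.05, and in nintedanib against B20, with 0% called and 3533 at an unadjusted p under 0.05. No member probe had an unadjusted p under 0.05 in any of these comparisons, and the lowest adjusted p of a member was 0.587. All member probes overlapped between the groups in each of the 3 comparisons. The comparisons share samples and are given side by side.

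The receptor genes gave these differences, and nintedanib inhibits the kinases encoded by Pdgfrb and Pdgfra. Pdgfrb in nintedanib was lower than in vehicle by 0.16 with a 95% interval of -0.73 to 0.40 (log2), and in B20 the difference from vehicle was -0.10 (-0.66 to 0.47). Nintedanib and B20 differed by -0.06 (-0.59 to 0.46). Pdgfra differed from vehicle by 0.10 (-0.42 to 0.62) in nintedanib and by -0.24 (-0.76 to 0.28) in B20, and was 0.34 (-0.14 to 0.82) higher in nintedanib than in B20. Within the slide of 3 arrays Pdgfra was 0.87 lower in B20 than in vehicle, and within the slide of 8 arrays the difference was 0.0015. Pdgfrl differed from vehicle by -0.08 (-0.65 to 0.49) in nintedanib and by -0.05 (-0.62 to 0.52) in B20.

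Among the ligands, Pdgfa had the narrowest intervals, at -0.07 (-0.47 to 0.34) in nintedanib and 0.08 (-0.33 to 0.48) in B20 against vehicle by probe A_55_P2007470. Pdgfc differed by 0.16 (-0.46 to 0.77) in nintedanib and by 0.30 (-0.32 to 0.91) in B20. The Pdgfb probes gave 0.16 (-0.45 to 0.76, brighter probe) and 0.55 (-0.33 to 1.43, dim probe) in nintedanib. In B20 they had opposite signs, at 0.07 (-0.53 to 0.67) and -0.18 (-1.07 to 0.70). Pdgfd had the widest intervals, at 0.48 (-0.65 to 1.60) in nintedanib and -0.27 (-1.39 to 0.86) in B20. Over the alternatives the nintedanib difference ran from 0.046 to 0.82 for Pdgfd, the lowest without vehicle replicate 2, and from 0.092 to 0.86 for the dim Pdgfb probe, the lowest with normexp. Of the 3 direct differences between the drugs furthest from 0, nintedanib was above B20 in each, by 0.74 for Pdgfd (-0.30 to 1.78), by 0.73 for the dim Pdgfb probe (-0.08 to 1.55) and by 0.34 for Pdgfra. Over the alternatives these ran from 0.29 to 0.96 for Pdgfd and from 0.19 to 1.05 for the dim Pdgfb probe, which was well above background on 2 of 4 B20 arrays. The interval for Pdgfd in the fit reported here ran from a 0.814-fold to a 3.44-fold level.

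**Figure D3:**
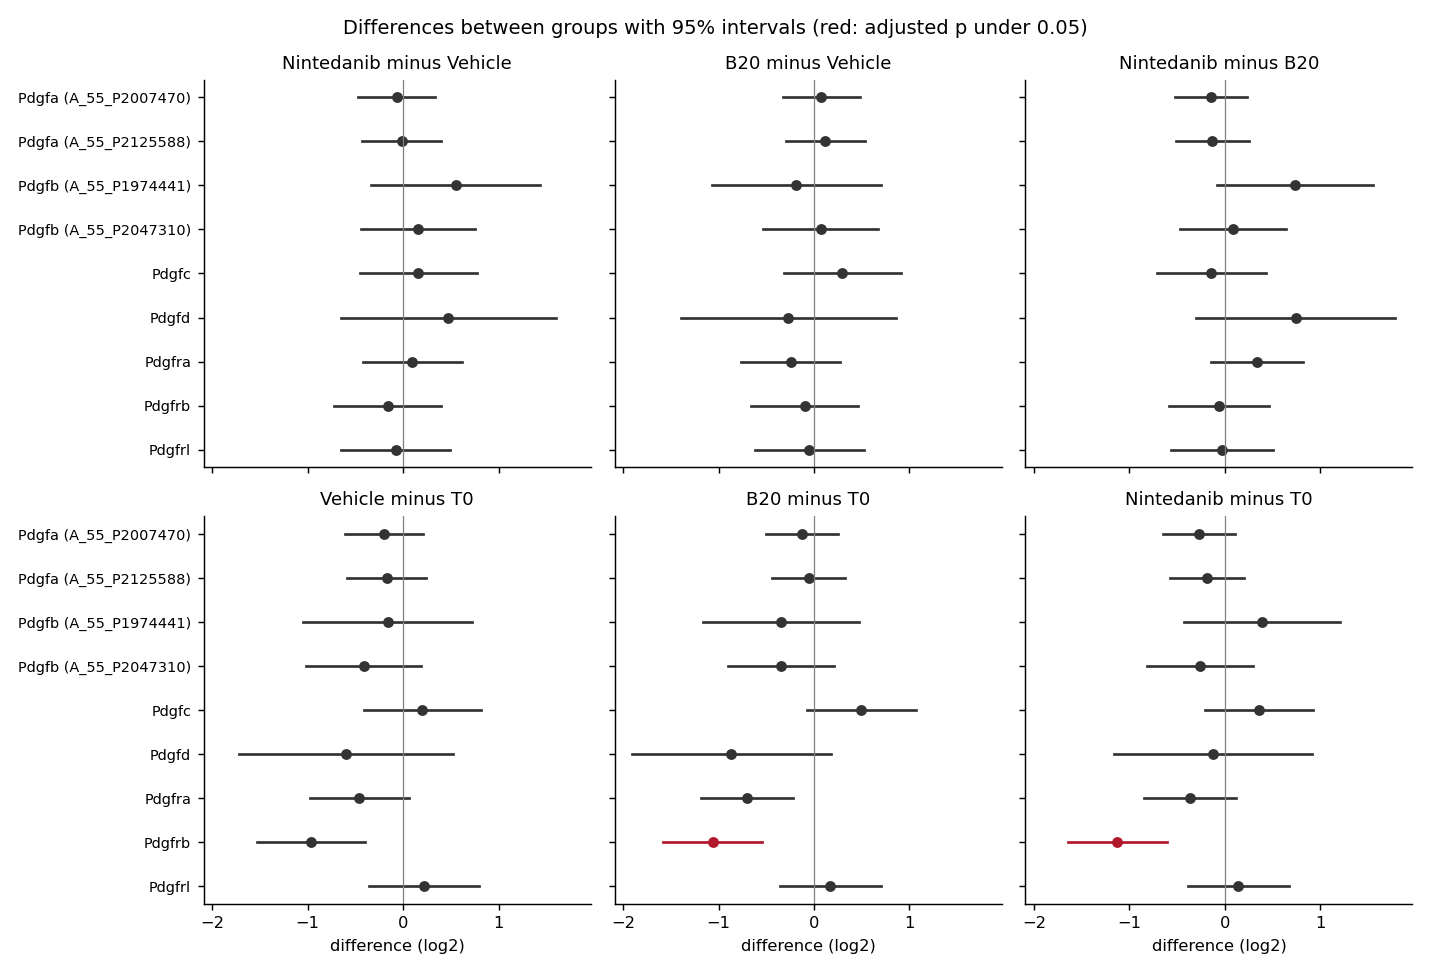
Difference between groups (log2, first minus second) for the 9 member probes in the 6 comparisons, with 95% intervals from the limma fit over all probes. Pdgfrb against T0 is the row with red points, in B20 (-1.06) and nintedanib (-1.13), and every interval in the 3 comparisons without T0 contains 0.

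Change over tumour growth was asked by comparing vehicle with T0, and the drug groups were compared with T0 after the levels had been seen. Pdgfrb was lower in all 3 end-of-treatment groups than in T0, and passed the test in 2 of them. It was lower by 1.13 ± 0.24 (log2, SE; 95% interval -1.65 to -0.60; 2.18-fold) in nintedanib with a limma adjusted p of 0.0133, and by 1.06 ± 0.24 (-1.58 to -0.54; 2.09-fold) in B20 with a limma adjusted p of 0.0212. In vehicle it was lower by 0.96 ± 0.26 (-1.53 to -0.40; 1.95-fold) with a limma adjusted p of 0.0537, which misses the threshold. The direct differences between these 3 groups, given above, are small beside these, and the comparisons share the T0 samples. Of all probes, 10.6% were called in nintedanib, 8.54% in B20 and 4.69% in vehicle against T0, and Pdgfrb was 1 of 9 member probes called in each of the drug groups, a share close to that of all probes.

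The call in nintedanib held with each array left out in turn, at adjusted p-values of 0.00851 to 0.0422, and was lost when arrays were scaled to the median (adjusted p = 0.0789). The call in B20 was lost without T0 replicate 1 (0.0645), T0 replicate 2 (0.0569), B20 replicate 2 (0.0590) or B20 replicate 4 (0.0520), with median scaling (0.110) and in a fit of the 2 groups alone (0.0677). Vehicle passed in 5 of 18 alternatives, at adjusted p-values of 0.0302 without T0 replicate 3 (-1.10), 0.0342 with normexp, 0.0343 in the authors' values, 0.0368 among probes above background on all 15 arrays and 0.00214 with array weights (limma). The difference was negative in every alternative, from -1.28 to -0.84 over the 3 groups. With slide as a random block the adjusted p was 0.0276 in nintedanib, 0.0411 in B20 and 0.0837 in vehicle. No slide held both T0 and end-of-treatment arrays, so this block cannot separate slide from sampling time.

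The other receptors did not pass against T0. Pdgfra was lower than in T0 by 0.70 ± 0.22 in B20 (95% interval -1.18 to -0.22, adjusted p = 0.0685 by limma), by 0.46 ± 0.24 in vehicle (-0.98 to 0.06) and by 0.36 ± 0.22 in nintedanib (-0.84 to 0.12). The B20 difference passed in 4 of 19 alternatives, at limma adjusted p-values of 0.0389 without T0 replicate 3 (-0.83), 0.0309 in the authors' values (-0.70), 0.0496 among probes above background on all 15 arrays and 0.0180 with array weights. Pdgfrl differed from T0 by 0.22 ± 0.27 in vehicle, 0.17 ± 0.25 in B20 and 0.14 ± 0.25 in nintedanib, each within its SE.

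Among the ligands against T0, Pdgfc had the higher value at the end of treatment, by 0.50 ± 0.26 in B20, 0.36 ± 0.26 in nintedanib and 0.20 ± 0.28 in vehicle, none of which passed. These values moved with single T0 arrays, among them replicate 4, which also carries a vehicle label. Without T0 replicate 4, the high one, they were 0.80 in B20 (adjusted p = 0.0179 by limma), 0.66 in nintedanib (0.0344) and 0.51 in vehicle (0.142). Without T0 replicate 1, the low one, they were 0.34 in B20 (adjusted p = 0.524 by limma), 0.20 in nintedanib (0.704) and 0.04 in vehicle (0.970). Of 19 alternatives in each drug group, 2 called Pdgfc, the other being array weights. The brighter Pdgfb probe was lower than in T0 by 0.41 ± 0.28 in vehicle, 0.35 ± 0.26 in B20 and 0.26 ± 0.26 in nintedanib, and the dim probe by 0.16 and 0.35 in the first 2 of these but higher by 0.39 in nintedanib. Pdgfa by probe A_55_P2007470 was lower by 0.12 to 0.27. Pdgfd differed by -0.60 in vehicle, -0.86 in B20 and -0.12 in nintedanib. Without T0 replicate 3 these became -0.05, -0.32 and 0.42. Leaving out that array thus nearly removed the Pdgfd difference in vehicle, shrank it in B20 and changed its sign in nintedanib.

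Pericytes, smooth muscle and fibroblasts are the cells known to carry the PDGF receptors, and their markers were set beside Pdgfrb. In bulk tumour RNA, fewer cells of a type and less RNA per cell cannot be told apart. Of 10 pericyte markers, 0 passed in vehicle, 3 fell in B20 (Rgs5 by 1.49, Cspg4 by 1.64 and Vtn by 1.80) and 1 fell in nintedanib (Abcc9 by 1.98) against T0. The medians were -0.17, -0.68 and -0.59, against medians over all 28029 genes tested by their brightest probe of 0.04, 0.08 and 0.01. Of those genes, 4.71%, 8.82% and 10.7% were called, and 2.05%, 3.45% and 4.29% were called lower. The log2 of the summed pericyte signal overlapped between all groups, at 6.39 to 6.76 in T0, 6.35 to 6.84 in vehicle, 6.08 to 6.67 in B20 and 6.15 to 6.88 in nintedanib, and each of the 10 markers was above background in each group.

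Of 7 smooth muscle markers, Cnn1 alone passed, lower than T0 by 2.92 in vehicle and by 2.20 in B20 (limma adjusted p = 0.0307 and 0.0490). The list medians were -1.15 in vehicle, -1.16 in B20 and -1.43 in nintedanib. The summed smooth muscle signal was 4.41 to 6.23 in T0 and 4.30 to 5.37 over the other groups, with Lmod1 not above background on any vehicle or B20 array. Of 13 fibroblast markers, Thy1 and Loxl1 fell in B20, Col3a1 fell in nintedanib and none passed in vehicle. The fibroblast medians were -0.37 in vehicle, -0.68 in B20 and -0.54 in nintedanib, with 10, 12 and 11 of the 13 markers lower than T0. The summed fibroblast signal was 8.18 to 8.93 in T0, 7.56 to 8.61 in vehicle, 7.58 to 8.14 in B20 and 7.43 to 8.25 in nintedanib.

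Endothelial cells are known to release PDGF-B. Of 12 endothelial markers, 3 passed in vehicle (Tek, Esam and Cldn5), 9 in B20 and 4 in nintedanib (Cdh5, Esam, Cldn5 and Robo4), all lower than T0, with medians of -1.01, -1.64 and -0.91. The summed endothelial signal was 4.63 to 5.62 in T0, 4.16 to 4.81 in vehicle, 4.26 to 4.71 in B20 and 4.11 to 4.35 in nintedanib.

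The adipocyte medians lay further below T0 than any PDGF gene. All 8 adipocyte markers fell in vehicle and all but Cfd in each drug group (7 of 8), with medians of -5.28, -3.04 and -3.34, and the summed adipocyte signal was 8.61 to 10.5 in T0, 3.42 to 5.94 in vehicle (where Lep did not exceed background), 5.38 to 7.62 in B20 and 5.25 to 8.11 in nintedanib. Of 8 skeletal muscle markers 0 passed, with medians of -3.90, -1.66 and -2.75 and summed signals of 5.31 to 10.7 in T0 against 2.99 to 10.2 over the other groups. Of 5 platelet markers tested, 1 fell in vehicle (Pf4, by 2.11, limma adjusted p = 0.0492) and 0 passed in the drug groups. Platelets are a possible source of PDGF protein, and their summed signal was 2.22 to 3.29 in T0 and 0.20 to 2.87 in the others. Macrophage markers did not pass (0 of 7 in each comparison, medians of 0.09 to 0.22). Basal epithelial markers had medians of 0.07 to 0.24, with Krt17 of 5 higher in B20 (1.41) and Oxtr lower in B20 (-1.52) and nintedanib (-1.51), and of 8 luminal markers Elf5 fell in nintedanib (-0.76). The marker genes named here were singled out after their values were seen, and their calls are given for the fit reported here alone. Beside the counts of each list, 4.71% of all genes were called in vehicle, 8.82% in B20 and 10.7% in nintedanib. The part of these tissues in the Pdgfrb difference was not tested.

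**Figure D4:**
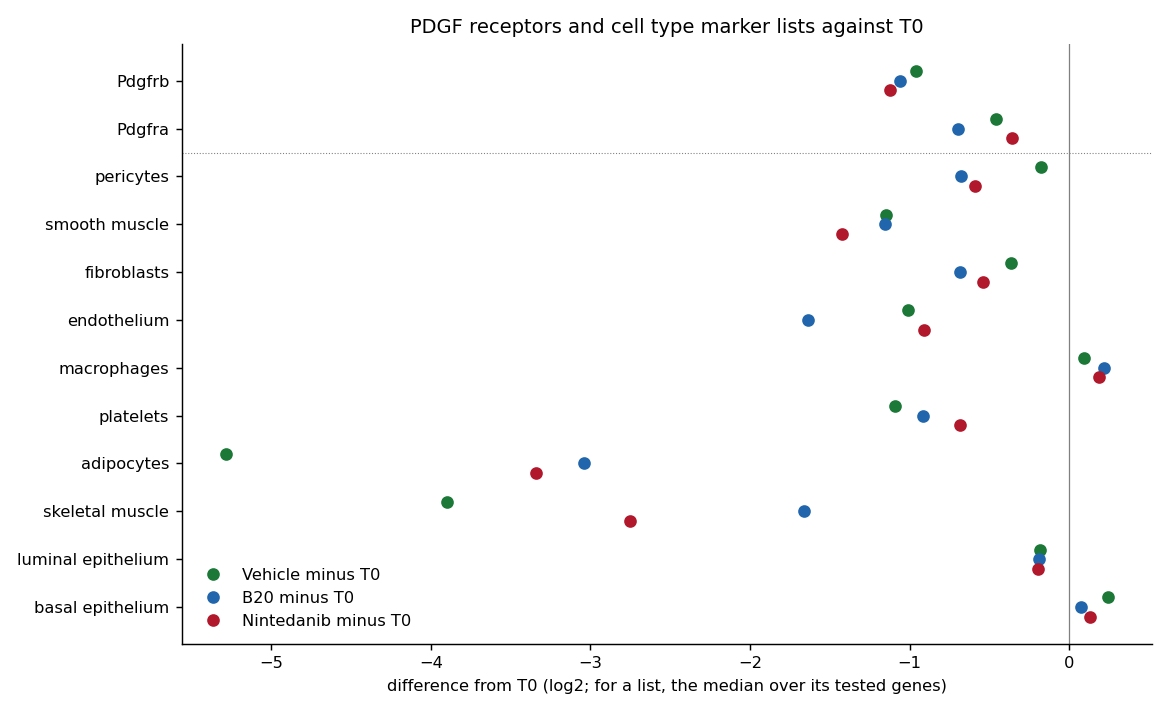
Difference from T0 (log2) of Pdgfrb and Pdgfra, and the median difference of each list of cell type markers, for vehicle, B20 and nintedanib. Pdgfrb lies at -0.96 to -1.13, below the pericyte medians (-0.17 to -0.68) and above the adipocyte medians (-3.04 to -5.28). It also lies above the smooth muscle medians (-1.15 to -1.43), and the endothelial medians (-0.91 to -1.64) lie on both sides of it.

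Genes that process or bind PDGF were examined as a list of 16. In the comparisons among end-of-treatment groups 0 passed. The 2 with the lowest unadjusted p in each were Thbs1 (-0.60) and Pcsk7 (0.23) in nintedanib against vehicle, Plat (-0.51) and Plau (0.41) in B20 against vehicle, and Pcsk7 (0.34) and Nrp1 (0.68) in nintedanib against B20. Plat encodes tissue plasminogen activator, which cleaves PDGF-C, and Plau encodes urokinase, which cleaves PDGF-D.

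Against T0, 5 of the 16 fell in B20, 1 fell and 1 rose in nintedanib, and 1 rose in vehicle, with list medians of -0.30, -0.24 and -0.22. The 2 of 16 in nintedanib and 1 of 16 in vehicle are close to the shares of all genes called there (10.7% and 4.71%), and in B20 3.45% of all genes were called lower. The genes called in B20 were Nrp1, a coreceptor that also binds PDGF, by 1.68 ± 0.33 (adjusted p = 0.0129 by limma), Sparc, a matrix protein that binds PDGF-B, by 1.10 ± 0.26, Cspg4, the pericyte proteoglycan NG2, by 1.64 ± 0.40, Pcsk6, a proprotein convertase, by 1.36 ± 0.34, and Hspg2, the basement membrane proteoglycan perlecan, by 1.37 ± 0.36. Hspg2 also fell in nintedanib, by 1.60 ± 0.36. Of 19 alternatives, the B20 call held in 17 for Nrp1, 13 for Sparc, 12 for Cspg4, 11 for Pcsk6 and 8 for Hspg2, and the nintedanib call of Hspg2 in 18. The calls of Sparc, Cspg4, Pcsk6 and Hspg2 in B20 were each lost without T0 replicate 1, T0 replicate 2, B20 replicate 2 or B20 replicate 4, those of Pcsk6 and Hspg2 also without B20 replicate 1, and that of Hspg2 without B20 replicate 3.

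A2m, the protease inhibitor alpha-2-macroglobulin, which carries PDGF in plasma, was the gene called higher. Its probe was well above background on 1 of 4 T0 arrays and on all end-of-treatment arrays, so it entered the test through the groups in which it is high, and the size of its difference from T0 is not a measured one. The fitted differences were 3.35 ± 0.74 in vehicle and 2.73 ± 0.68 in nintedanib, and in the values of the series table they were 0.97 and 0.69, where nintedanib was no longer called. Each call held in 10 alternatives, of 17 in vehicle and 18 in nintedanib. Both were lost without T0 replicate 1 or T0 replicate 2 and in a fit of the 2 groups alone. The vehicle call was also lost without any 1 vehicle array and with the replicate block, and the nintedanib call without nintedanib replicate 1 or 2, with normexp and with slide as a block.

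The 28 genes of receptor signalling, the adaptors and kinases that a bound PDGF receptor engages, had medians of -0.07 to 0.00 in the comparisons among end-of-treatment groups, and 0 passed. The lowest unadjusted p-values belonged to Crk (-0.37) and Stat3 (-0.45) in nintedanib against vehicle, Fyn (-0.50) and Sos1 (-0.49) in B20 against vehicle, and Gab1 (0.62) and Grb2 (0.48) in nintedanib against B20. Against T0, 0 passed in vehicle, where Pik3ca was at -0.49 and Rasa1 at 0.56. In B20, Pik3ca, the catalytic subunit of PI3-kinase, fell by 0.71 ± 0.16, the docking protein gene Gab1 by 0.93 ± 0.25 and Fyn, a Src family kinase, by 0.73 ± 0.20, and Rasa1, the Ras GTPase-activating protein that docks on PDGF receptor beta, rose by 0.70 ± 0.19. In nintedanib Stat5a fell by 1.01 ± 0.25 and Pik3ca by 0.55 ± 0.16, and the adaptor gene Nck2 rose by 0.47 ± 0.13. Of the 28, 3 were called lower and 1 higher in B20, and 2 lower and 1 higher in nintedanib. Of all genes, 8.82% were called in B20 and 10.7% in nintedanib, and the nintedanib calls are close to that share.

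Pik3ca in B20 kept its call in 16 of 19 alternatives and Stat5a in 14 of 19, and the other 5 signalling calls in 4 to 8 of 19. Pik3ca in B20 lost its call without B20 replicate 4. Stat5a lost it without T0 replicate 1 or 2 or nintedanib replicate 1 or 3. The call of Gab1 was lost without any 1 T0 or B20 array, that of Fyn without T0 replicate 1 or 2 or any 1 B20 array, and that of Rasa1 without T0 replicate 1, 2 or 3 or any 1 B20 array. In nintedanib, Nck2 lost its call without replicate 1, 2 or 3 of either T0 or nintedanib, and Pik3ca without T0 replicate 1, 3 or 4 or any 1 nintedanib array.

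Attenuators of receptor signalling formed a list of 15, of which 1 passed in vehicle, 4 in B20 and 1 in nintedanib against T0, beside 4.71%, 8.82% and 10.7% of all genes. The single calls in vehicle and nintedanib are close to those shares. Spry2, an inducible inhibitor of Ras-ERK signalling downstream of receptor kinases, rose against T0 by 1.04 ± 0.20 in vehicle, 1.16 ± 0.18 in B20 and 1.00 ± 0.18 in nintedanib (limma adjusted p = 0.0127, 0.00561 and 0.00655). Its call held in 19 of 19 alternatives in B20, in 18 of 19 in nintedanib and in 14 of 18 in vehicle, where it was lost without vehicle replicate 2 or 3. In B20 Socs3, a feedback inhibitor of cytokine receptors, rose by 1.07 ± 0.21 (18 of 19), the phosphatase gene Ptpn2 rose by 0.65 ± 0.19 and Spred2, an inhibitor of Ras-Raf signalling, fell by 1.06 ± 0.29 (8 of 19 each).

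Among end-of-treatment groups 0 of the 15 attenuators passed. Those with the lowest unadjusted p were Spred1 (-0.37) and Nf1 (-0.34) in nintedanib against vehicle, Spry1 (-0.62) and Ptpn1 (-0.54) in B20 against vehicle, and Spred1 (-0.54) and Spry1 (0.54) in nintedanib against B20. The calls of Ptpn2 and Spred2 were each lost without T0 replicate 1, 2 or 3 or B20 replicate 2 or 4, Ptpn2 also without B20 replicate 3 and Spred2 without B20 replicate 1.

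Of 18 early genes that PDGF is known to induce, 17 were tested. Against T0, 1 was called in B20, 1 in nintedanib and 0 in vehicle. These counts are not above the shares of all genes called, which were 8.82%, 10.7% and 4.71%. Ier3 rose against T0 by 1.12 ± 0.25 in B20 and 0.94 ± 0.25 in nintedanib and was at 0.78 ± 0.27 in vehicle (adjusted p = 0.112 by limma), where the next lowest unadjusted p was that of Egr2 (-0.73). Its call held in 15 of 19 alternatives in B20 and 9 of 19 in nintedanib. The B20 call was lost without T0 replicate 1 or 2, and the nintedanib call also without nintedanib replicate 1, 2 or 4. Among end-of-treatment groups 0 passed, with list medians of 0.14 in nintedanib and 0.41 in B20 against vehicle beside -0.01 and 0.04 over all genes. The lowest unadjusted p-values were those of Jun (-0.53) and Ccl7 (1.07) in nintedanib, of Fosb (1.81) and Klf6 (0.52) in B20, and again of Klf6 (-0.76) and Fosb (-1.76) in nintedanib against B20. Of the remaining class III receptor kinases, Kit, Csf1r and Flt3, 0 passed in any of the 6 comparisons. Their lowest adjusted p was 0.0753 (limma), for Kit, which was 0.77 ± 0.26 higher in nintedanib than in T0, with Csf1r at -0.16. The 2 lowest unadjusted p-values of this list were those of Flt3 (0.69) and Kit (0.42) in nintedanib against vehicle, Flt3 (0.67) and Csf1r (-0.15) in B20 against vehicle, and Kit (0.58) and Csf1r (0.37) in nintedanib against B20. Against T0 they were Flt3 (-0.73) and Csf1r (-0.39) in vehicle and Csf1r (-0.53) and Kit (0.19) in B20.

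Genes with the most similar pattern to each member were listed by Pearson r of the level over the 15 arrays, among 13412 genes well above background on all of them. These correlations are a description, since the arrays share groups and slides. For Pdgfrb they were Aph1a (r = 0.957), Txnrd2 (0.948) and Rapgef3 (0.943), with r of 0.939, 0.811 and 0.723 over the 11 end-of-treatment arrays alone. For Pdgfra they were Nrp1 (0.925), Cys1 (0.915) and Tacc1 (0.902), with 0.865, 0.829 and 0.812 over those 11 arrays. Nrp1 is thus both the nearest gene to Pdgfra and the PDGF-binding gene with the lowest adjusted p in B20 against T0.

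For the ligands the nearest genes were Tm2d3 (0.935), Tmem107 (0.923) and Ctsh (0.909) to Pdgfc, Adam15 (0.912), Ywhag (0.884) and Tmem184b (0.875) to Pdgfb, and Relt (0.745), 1700001K19Rik (0.744) and Psmd4 (0.734) to Pdgfa. Slc35g2 (0.839), Rhox2e (0.833) and Fam166b (0.813) were nearest to Pdgfd, and without T0 replicate 3 these r values were 0.591, 0.568 and 0.499. Pdgfrl was nearest to Bace2 (0.804), Col8a1 (0.796) and Cisd3 (0.788), with r of 0.800, 0.804 and 0.808 over the end-of-treatment arrays.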

How the data were processed

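Total RNA from 15 mammary tumour samples was hybridised to Agilent 1-colour arrays (design 028005, 62976 spots). Per the file headers, Feature Extraction 10.7.3.1 subtracted the background and wrote a processed signal, the spot intensity used here, and the flags for spots above background, saturated spots and outlier spots, which are other values of 0 or 1. The headers name protocol GE1_1100_Jul11 for the T0 arrays and GE1_1100_Jul11_B for the end-of-treatment arrays. The part of this difference in the comparisons with T0 was not tested. The series table the authors deposited holds log2 values, and how they were made is not stated in the files or labels. The columns of that table had medians of 6.616 to 6.627. Normexp with an offset of 50 and quantile normalisation gave nearly the same values, with r of at least 0.9996 on each array. The median absolute difference was 0.0075 to 0.0092 log2.

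Control and outlier spots were left out, spots of 1 probe were averaged, and the log2 intensity was scaled to each array's 75th percentile with no constant added. Probes well above background on at least 3 arrays were kept (38958). Names came from matching transcript identifiers to a mouse RefSeq table (26056 probes named, 29625 not). The arrays are annotated on mm9 and no annotation of that build was used, so no positions are given. Groups were taken from titles. A linear model over all 15 arrays was fitted in R 4.3.3 with limma 3.58.1 (lmFit, eBayes, two-sided, Benjamini-Hochberg over all probes, threshold 0.05), and all probes of a member are given.

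Pathway and marker genes were read by their brightest probe. One of the planned pathway genes is not reported here. The text names the called pathway genes, up to 5 of a list, or the 2 with the lowest p where none was called, and the 3 genes nearest to each member. The members, lists and rules were chosen with earlier results of these data known. Precision was set by the number of arrays, with a median SE of 0.306 log2 (4 against 3 arrays) or 0.283 (4 against 4). On simulated data for nintedanib against vehicle over 38958 probes, 15 of 50 changes of 1 log2 were called, 31 of 50 of 2, 41 of 50 of 3 and 47 of 50 of 4, with 8 false calls.

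The alternatives were median and quantile scaling, normexp, the authors' values, 2 other filters, the brightest probe per gene, the compared groups alone, array weights, slide or replicate number as a block, the slide of 8 arrays alone, and each array left out. The normexp setting used the median spot signal, since the planned mean signal was not among the columns at hand. Comparisons of the drug groups with T0, and the recomputed pathway calls, were added after the data were seen.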

Additional observations from a re-analysis of the deposited data

Results flagged for a closer look

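In 27 groups of 4 arrays (9 probes in T0, B20 and nintedanib), 2 held an array far from the other 3 by Dixon's criterion, which chance alone exceeds in about 1 in 20 groups. Pdgfd in T0 replicate 3 was at -1.15, with the gap to the nearest array taking up 0.867 of the group's range. This array also had the largest share of probes well above background (84.2%). Pdgfrl in nintedanib replicate 1 was at 0.87, with a gap of 0.835 of the range, and that array's share of probes well above background was 65.4%. The part of array quality in either value was not tested. Without nintedanib replicate 1, the Pdgfrl difference between nintedanib and vehicle was 0.16 in place of -0.08.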

How the results depend on the processing

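Over 9 probes and 6 comparisons, 1008 values were recomputed under the alternatives. Of these 936 kept their sign and side of the threshold, 14 gained the call (against T0: 5 of Pdgfrb and 1 of the brighter Pdgfb probe in vehicle, 4 of Pdgfra in B20, and 2 of Pdgfc in each drug group), 7 lost it (all Pdgfrb) and 51 changed sign, 33 of them on leaving out an array. As reported, before the change of setting, each of the 51 was at most 0.27 log2 and about 1.00 SE in size. The cause of the changes was not tested.

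Array weights changed sign for Pdgfa in nintedanib against vehicle (to 0.025 for A_55_P2007470 and 0.056 for A_55_P2125588), Pdgfrl there (0.0021) and in nintedanib against B20 (0.031), Pdgfrb in B20 against vehicle (0.048) and Pdgfd in nintedanib against T0 (0.29). Quantile normalisation, normexp and the authors' values did so for A_55_P2125588 of Pdgfa in nintedanib against vehicle (0.025, 0.021 and 0.021), Pdgfrl in nintedanib against B20 (0.0045, 0.017 and 0.017) and A_55_P1974441 of Pdgfb in vehicle against T0 (0.041, 0.016 and 0.016). Within the slide of 8 arrays, Pdgfc in nintedanib (-0.061), Pdgfra in B20 (0.0015) and Pdgfrb in B20 (0.055) changed sign against vehicle.

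Leaving out 1 array gave, in nintedanib against vehicle, -0.17 to 0.0087 and -0.089 to 0.044 for the Pdgfa probes in the order above, -0.054 to 0.28 for the brighter Pdgfb probe, -0.040 to 0.20 for Pdgfra, -0.29 to 0.026 for Pdgfrb and -0.18 to 0.16 for Pdgfrl. In B20 against vehicle it gave -0.022 to 0.15 for A_55_P2007470, -0.54 to 0.13 and -0.14 to 0.19 for the dim and brighter Pdgfb probes, -0.70 to 0.073 for Pdgfd, -0.24 to 0.090 for Pdgfrb and -0.15 to 0.12 for Pdgfrl. In nintedanib against B20 it gave -0.017 to 0.21 for the brighter Pdgfb probe, -0.22 to 0.080 for Pdgfrb and -0.13 to 0.21 for Pdgfrl. Against T0 it gave -0.48 to 0.19 for the dim Pdgfb probe in vehicle, -0.20 to 0.035 for A_55_P2125588 in B20 and -0.34 to 0.42 for Pdgfd in nintedanib.

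The count of probes called in nintedanib against vehicle was 1 with normexp, 1 in the authors' values, 36 with array weights and 0 to 1 on leaving out an array. In vehicle, B20 and nintedanib against T0, it was 968, 1583 and 1879 with median scaling, 18, 1109 and 1669 from the compared groups alone, 6974, 7513 and 10413 with array weights, and 1097, 1899 and 2587 with slide as a block. Without a filter it was 989 in vehicle and 1946 in B20. Leaving out an array gave 586 to 2683, 1038 to 4299 and 1973 to 5491.

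Over 21 same-numbered pairs of arrays, the r of deviations from the group mean was -0.244 to 0.360, with 5 of them over 0.1. Pairs with different numbers were not compared, so whether the replicate numbers pair the samples was not settled. With the replicate block, 0 probes were called in each comparison among end-of-treatment groups and 1528, 2563 and 3407 against T0, and Pdgfrb against T0 had adjusted p-values of 0.110 in vehicle, 0.0466 in B20 and 0.0334 in nintedanib (limma). The dimmest probes, of Pdgfb and Pdgfd, had the widest intervals.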
